A study of Homo sapiens with 8 samples.

Results

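The collagen chain genes are the 43 protein-coding genes, of 55679 gene identifiers in the count table, whose symbol is COL, a number, A and a number. They comprise 11 fibrillar chains, 6 basement membrane chains (COL4A1 to COL4A6) and 26 others. The others are 10 FACIT chains (which sit on fibrils), 6 beaded filament chains (5 of type VI and COL28A1), 4 membrane-spanning chains, 3 short-chain network chains, 2 multiplexins and 1 anchoring fibril chain, COL7A1. COL26A1 fits the symbol but is listed with a pseudogene biotype and was left out. The chains were measured by RNA-seq in 2 triple-negative breast cancer (TNBC) cell lines, MDA-MB468 and BT549. Each line was present as parental cells and as CE cells, which had been chronically exposed to increasing Acetalax (oxyphenisatin acetate) up to 40 μmol/L and then kept without it for 2 weeks. Each of these 4 backgrounds gave 1 untreated (control) library and 1 library of cells given 1 μmol/L Acetalax over 6 hours, 8 libraries in all. The labels name no allele or transgene in any group, the CE cells are described as resistant clones, 1 CE population per line was sequenced, and all cells grew in medium with fetal bovine serum.

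A collagen is a trimer of alpha chains wound into a triple helix, and each chain is the product of its own gene. Fibrillar collagens (types I, III and V among them) form the ropes of connective tissue, and type IV forms the sheet-like network of basement membranes on which epithelia rest. Fibroblasts make most fibrillar collagen in breast tissue, while epithelial tumor cells typically make basement membrane chains, and cells with mesenchymal features can make both. Before secretion the chains are hydroxylated, glycosylated and folded in the endoplasmic reticulum, and afterwards trimmed and cross-linked.

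The libraries held 42261122 to 54241728 counts on genes each, so that 1 CPM, a count per 1000000 counts on genes, stood for 42.3 to 54.2 counts, and a count of 0 allowed up to 3 counts. The summed level of 6 epithelial markers (EPCAM, CDH1, KRT8, KRT18, KRT19 and ESRP1) was 5175 to 7838 CPM in MDA-MB468 and 5.93 to 87.6 CPM in BT549, and all 6 were lower in BT549. The 6 mesenchymal markers (VIM, CDH2, ZEB1, ZEB2, TWIST1 and SNAI2) were all higher in BT549, with a sum of 1242 to 1823 CPM against 2.02 to 9.37 CPM. Markers of fibroblasts (PDGFRA, PDGFRB and FAP, 1.73 to 5.87 CPM in sum over all libraries), leukocytes (PTPRC, CD3E and CD68, 0.103 to 0.793 CPM in sum) and endothelium (0 to 8.18 CPM for VWF and CDH5) were low, with CD3E at 0 in every library.

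Type IV chains are encoded in head-to-head pairs, and this arrangement is shown first because members of 2 of the pairs moved together in CE cells. COL4A1 and COL4A2 did so in both lines, and COL4A3 and COL4A4 in MDA-MB468. With Acetalax in MDA-MB468 parental cells COL4A1 and COL4A2 moved apart. Without and with the drug COL4A1 was at 2.92 and 4.74 CPM and COL4A2 at 11.9 and 9.29 CPM. In hg19, the build of the count table, COL4A1 (chr13:110801318-110959496, minus strand) and COL4A2 (chr13:110958159-111165374, plus strand) overlapped by 1338 bp at their starts. COL4A4 (chr2:227867427-228028829, minus strand) and COL4A3 (chr2:228029281-228179508, plus strand) were 451 bp apart, and COL4A6 and COL4A5 on chromosome X were 346 bp apart. RefSeq promoter windows of GRCh38.p14, from 250 bases before to 50 bases after a start, were matched for 31 of the 43 genes by symbol. The 2 windows of COL4A1 and COL4A2 shared 226 bases, with starts 127 bp apart, and those of COL4A3 and COL4A4 shared 82 bases, with starts 419 bp apart. The windows of these 4 genes are printed here together with those of COL15A1 and COL7A1, the chains with the largest rise and the largest fall, respectively, in BT549 CE cells among those at 1 CPM or more. Capitals mark matches on either strand to CCAAT (the CCAAT box), GGGCGG (the GC box) and TATAAA (the TATA box).
COL4A1 (chr13:110307108-110307407, minus strand): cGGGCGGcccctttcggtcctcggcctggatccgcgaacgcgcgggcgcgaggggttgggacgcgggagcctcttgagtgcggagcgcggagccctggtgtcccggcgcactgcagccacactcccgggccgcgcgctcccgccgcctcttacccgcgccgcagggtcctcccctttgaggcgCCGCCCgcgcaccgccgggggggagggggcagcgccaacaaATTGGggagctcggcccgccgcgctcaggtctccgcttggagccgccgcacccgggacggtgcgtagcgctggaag
COL4A2 (chr13:110307034-110307333, plus strand): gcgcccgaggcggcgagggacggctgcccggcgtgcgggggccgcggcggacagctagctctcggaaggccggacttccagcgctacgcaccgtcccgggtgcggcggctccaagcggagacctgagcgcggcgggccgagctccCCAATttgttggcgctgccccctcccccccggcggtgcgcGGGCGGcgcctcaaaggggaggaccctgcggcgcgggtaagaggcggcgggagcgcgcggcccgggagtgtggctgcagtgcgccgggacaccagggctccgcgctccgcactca
COL4A3 (chr2:227164374-227164673, plus strand): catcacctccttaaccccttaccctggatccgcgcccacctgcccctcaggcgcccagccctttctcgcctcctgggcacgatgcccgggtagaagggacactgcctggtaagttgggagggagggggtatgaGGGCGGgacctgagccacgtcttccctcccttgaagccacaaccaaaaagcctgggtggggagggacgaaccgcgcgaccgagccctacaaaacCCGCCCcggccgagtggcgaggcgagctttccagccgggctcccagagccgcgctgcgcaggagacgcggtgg
COL4A4 (chr2:227164156-227164455, minus strand): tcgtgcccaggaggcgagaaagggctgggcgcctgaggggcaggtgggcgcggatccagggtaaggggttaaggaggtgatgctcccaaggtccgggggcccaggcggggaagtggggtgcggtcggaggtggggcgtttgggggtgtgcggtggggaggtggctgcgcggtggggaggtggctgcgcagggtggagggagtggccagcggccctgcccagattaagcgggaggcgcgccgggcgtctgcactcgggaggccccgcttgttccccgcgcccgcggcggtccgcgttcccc
COL7A1 (chr3:48595280-48595579, minus strand): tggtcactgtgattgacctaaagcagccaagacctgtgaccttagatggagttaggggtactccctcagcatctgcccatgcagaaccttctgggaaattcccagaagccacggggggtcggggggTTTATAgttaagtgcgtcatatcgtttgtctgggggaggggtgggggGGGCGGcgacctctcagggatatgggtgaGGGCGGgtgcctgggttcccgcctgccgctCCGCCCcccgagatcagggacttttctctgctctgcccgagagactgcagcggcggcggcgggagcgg
COL15A1 (chr9:98943657-98943956, plus strand): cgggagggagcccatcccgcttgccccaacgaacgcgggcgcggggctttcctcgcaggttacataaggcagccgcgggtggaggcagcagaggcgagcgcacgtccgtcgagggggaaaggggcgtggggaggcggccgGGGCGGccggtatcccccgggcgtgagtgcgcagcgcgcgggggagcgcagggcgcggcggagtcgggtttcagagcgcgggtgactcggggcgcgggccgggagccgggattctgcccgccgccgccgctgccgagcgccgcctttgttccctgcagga

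COL4A1 and COL4A2 held 1 CCAAT box each, and 2 and 1 GC boxes. The CCAAT box and 1 GC box lie in the bases shared by the 2 windows. They are the same sites read from opposite strands, and each window counts them. COL4A3 had 2 GC boxes and COL4A4 none of the 3 motifs. COL7A1 had 3 GC boxes and 1 TATA box, and COL15A1 had 1 GC box. Over the 43 windows of the 31 genes, 32.6% held a CCAAT box, 55.8% a GC box and 18.6% a TATA box. Over all 35097 windows the shares were 34.6%, 44.9% and 11.5%.

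Total collagen RNA differed widely between the lines. The 43 genes summed to 287 CPM in MDA-MB468 parental control, 310 CPM in parental Acetalax, 399 CPM in CE control and 449 CPM in CE Acetalax. In BT549 the sums were 3910, 4061, 11983 and 10346 CPM in the same order, all above every MDA-MB468 library. Collagen chains thus took 0.391% of all counts in BT549 parental control and 1.20% in BT549 CE control, against 0.0287% and 0.0399% in MDA-MB468. In bulk RNA, fewer cells expressing a gene and less RNA per cell cannot be told apart.

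**Figure D1:**
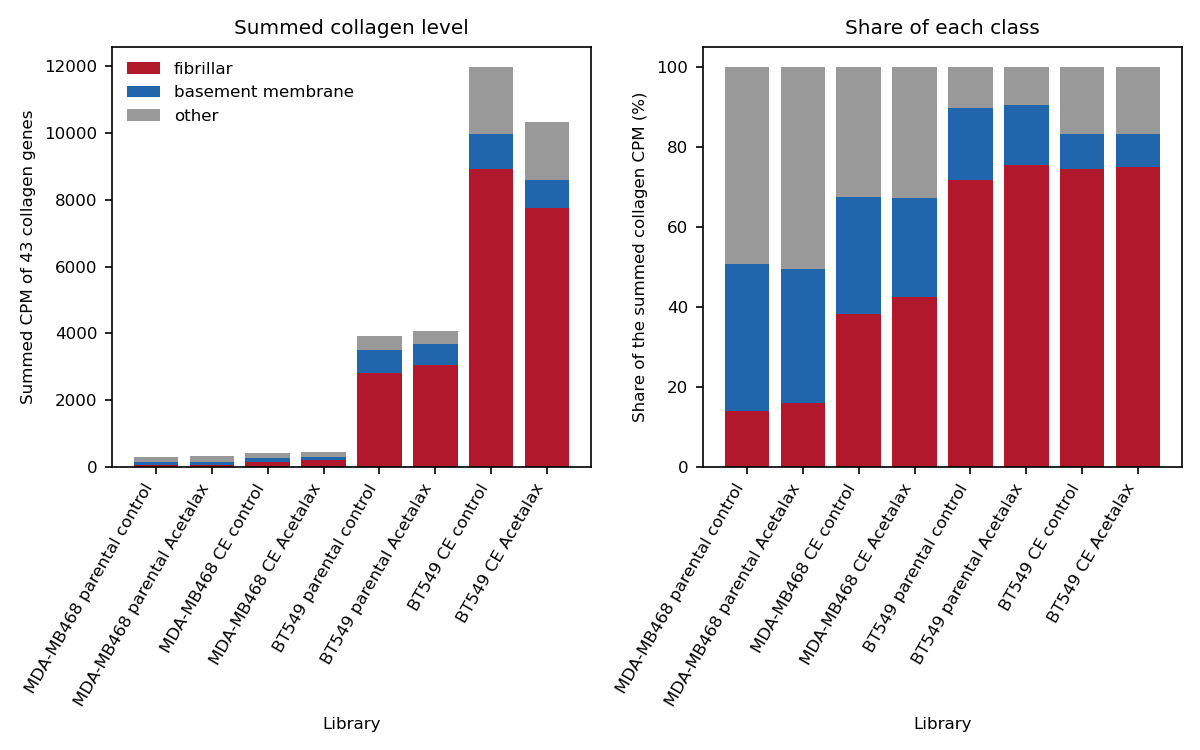
Left, summed CPM of the 43 collagen chain genes in each of the 8 libraries, stacked by class; right, the percentage of that sum in each class. The sum was 287 to 449 CPM in MDA-MB468 and 3910 to 11983 CPM in BT549, and the fibrillar share was 13.8% to 42.4% and 71.8% to 75.4%, respectively.

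The mixture of chains differed as well. Fibrillar chains made up 13.8% and 16.0% of collagen CPM in MDA-MB468 parental control and Acetalax and 38.3% and 42.4% in CE control and Acetalax, but 71.8% to 75.4% in the 4 BT549 libraries. The share of basement membrane chains ranged from 36.8% in MDA-MB468 parental control to 8.31% in BT549 CE Acetalax. The leading chain by CPM was COL18A1, a multiplexin of basement membranes, in both MDA-MB468 parental libraries, and COL5A2 in both MDA-MB468 CE libraries. COL1A2 led in BT549 except for parental Acetalax, where COL1A1 did. Between 16 and 20 of the 43 genes reached 1 CPM in the MDA-MB468 libraries and 24 to 26 in the BT549 libraries. Over all libraries 29 reached 1 CPM in at least 1 library, and the other 14 did not (highest 0.959 CPM, COL9A3). Those 14 are COL2A1, COL5A3, COL6A5, COL6A6, COL8A2, COL9A1, COL9A3, COL10A1, COL11A1, COL14A1, COL19A1, COL20A1, COL22A1 and COL25A1.

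**Figure D2:**
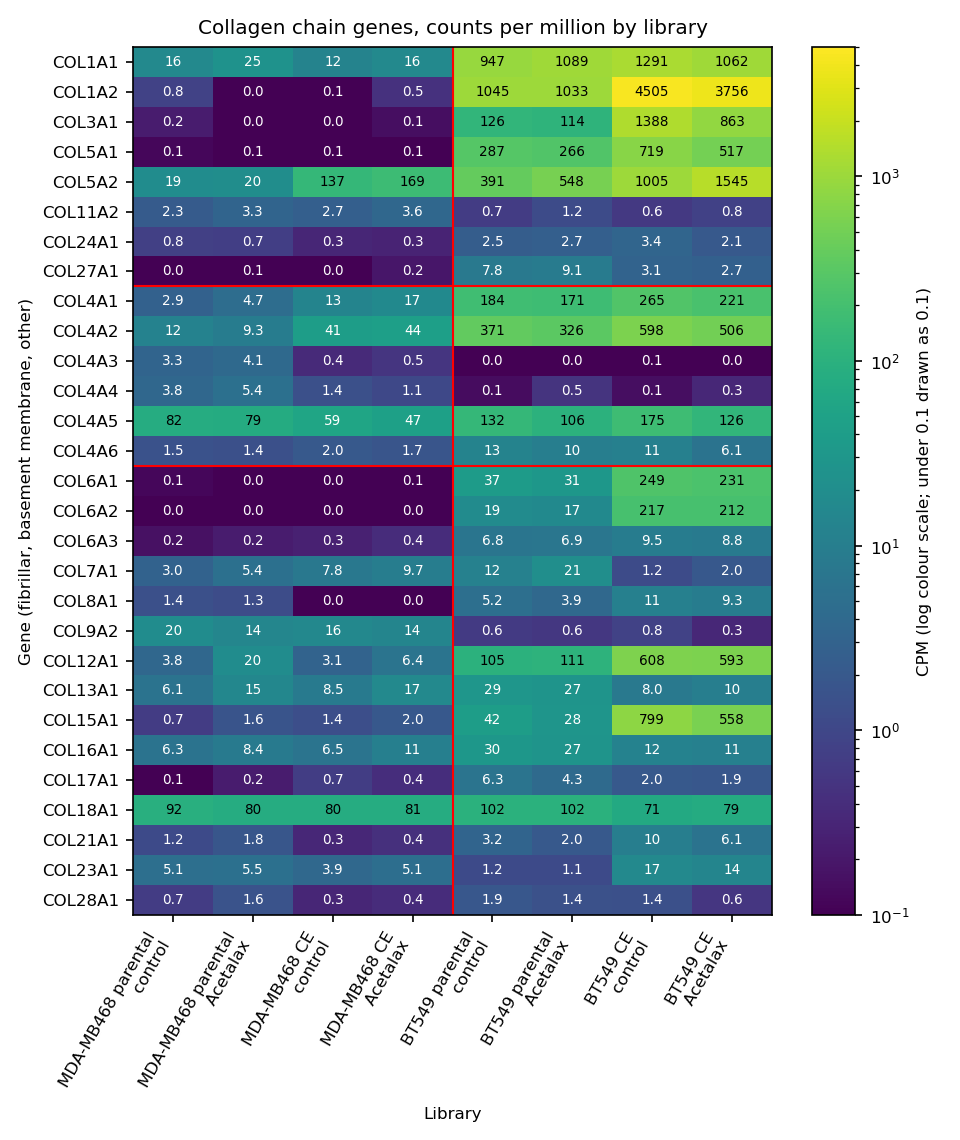
CPM of the 29 collagen chain genes that reached 1 CPM in a library, on a log colour scale, with genes in rows by class and the 8 libraries in columns; red lines separate the classes and the lines. COL1A2, COL3A1, COL5A1, COL6A1 and COL6A2 stayed under 1 CPM in all 4 MDA-MB468 libraries, whereas COL18A1 was at 71.5 to 102 CPM in every library.

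The first comparison was between BT549 and MDA-MB468 over the 4 conditions. These conditions served as the replicates of a line and are not independent cultures of it, so p-values measure only the spread between these libraries. Of the 43 genes, 33 had enough counts to be tested. In edgeR's quasi-likelihood test with p-values adjusted over all genes (Benjamini-Hochberg, threshold 0.05), 24 of the 33 were called, 20 higher and 4 lower in BT549. Over all 19693 genes tested 62.2% were called (30.3% higher and 31.9% lower), so that the number called was close to the background while the direction was not. The median log2 difference of the 33 was 2.66, against -0.01 over all genes tested. By class, 7 of 8 tested fibrillar chains were higher and 1 lower, 4 of 6 basement membrane chains were higher and 2 lower, and 9 of 19 others were higher and 1 lower. In 20 of the 33 genes every BT549 library lay above every MDA-MB468 library (21.5% of all genes tested) and in 4 every one lay below (31.8%). Counted as CPM ratios of at least 2-fold, 22 of 29 chains were higher and 5 lower in BT549 parental control (19.6% and 25.7% of all genes with 1 CPM in either library), and 19 and 5 of 29 in parental Acetalax (19.6% and 25.9%). In CE cells the numbers were 21 and 4 of 28 in control (17.9% and 25.7%) and 20 and 4 of 27 with Acetalax (17.3% and 32.2%).

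Among the fibrillar chains, COL1A1 and COL1A2 encode the chains of type I collagen. COL1A1 was present in both lines, at 16.5, 24.8, 12.4 and 16.0 CPM in MDA-MB468 (parental control, parental Acetalax, CE control and CE Acetalax, the order used throughout) and at 947, 1089, 1291 and 1062 CPM in BT549. COL1A2 was at 0.843, 0.0206, 0.0680 and 0.463 CPM in MDA-MB468 (41, 1, 3 and 22 counts) and at 1045, 1033, 4505 and 3756 CPM in BT549. The lines did not overlap for either gene, and MDA-MB468 thus had COL1A1 RNA with little of its partner. The log2 differences were 6.18 for COL1A1 (SE 0.27, edgeR adjusted p = 2.1e-06) and 12.72 for COL1A2 (SE 1.12, edgeR adjusted p = 5.57e-05).

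COL3A1, the chain of type III collagen, had 11, 0, 2 and 7 counts in MDA-MB468 and 126, 114, 1388 and 863 CPM in BT549. COL5A1 and COL5A2 encode chains of type V, which forms the core of type I fibrils. COL5A1 had 3 to 6 counts in the MDA-MB468 libraries and 287, 266, 719 and 517 CPM in BT549, a log2 difference of 12.42 (SE 0.34, edgeR adjusted p = 4.94e-07). COL5A2 differed less, with 19.0, 20.4, 137 and 169 CPM in MDA-MB468 and 391, 548, 1005 and 1545 CPM in BT549 (log2 difference 3.95, SE 0.32, edgeR adjusted p = 3.79e-05). In the MDA-MB468 libraries it thus came almost without its partner COL5A1. Lower fibrillar levels were those of COL24A1 (0.294 to 0.761 CPM in MDA-MB468, 2.08 to 3.36 CPM in BT549) and COL27A1 (0 to 0.189 and 2.73 to 9.08 CPM), both higher in BT549. COL11A2, a cartilage chain, ran the other way at 2.26 to 3.64 CPM in MDA-MB468 and 0.608 to 1.20 CPM in BT549 (log2 difference -1.70, SE 0.21, edgeR adjusted p = 3.41e-04).

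The basement membrane class split by trimer. COL4A1 and COL4A2, the chains of the ubiquitous type IV trimer, were 63.1-fold and 31.0-fold higher in BT549 than in MDA-MB468 parental control cells, and 20.3-fold and 14.6-fold higher in CE control cells. COL4A3 and COL4A4, which with COL4A5 form the trimer of the kidney filter, were the reverse. COL4A3 was at 3.29, 4.08, 0.362 and 0.526 CPM in MDA-MB468 and at 0.0198 to 0.0737 CPM in BT549, and COL4A4 was at 3.76, 5.44, 1.38 and 1.05 CPM against 0.142 to 0.506 CPM. Both were lower in BT549, by log2 differences of -4.97 (SE 0.71) and -3.05 (SE 0.49), with edgeR adjusted p = 6.26e-04 and 0.00113. COL4A5 was the most abundant type IV chain in MDA-MB468, at 82.3, 79.3, 58.6 and 47.1 CPM, and reached 132, 106, 175 and 126 CPM in BT549 (log2 difference 1.19, SE 0.23, edgeR adjusted p = 0.0029). COL4A6 was at 1.38 to 2.04 CPM and 6.05 to 12.8 CPM, without overlap. COL4A3 shares 838 bp of exon with a gene on the opposite strand (296 counts over the 8 libraries, against 407 for COL4A3), and the strand setting of the counts is not given, so its level is uncertain.

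Of the other chains, type VI, a beaded filament of the pericellular matrix, was low in MDA-MB468. COL6A1 had 6, 1, 1 and 4 counts in MDA-MB468 and 37.2, 31.2, 249 and 231 CPM in BT549, and COL6A2 had 1, 0, 1 and 1 counts and 18.7, 16.7, 217 and 212 CPM. The fitted log2 differences of 10.95 and 12.73 (SE 0.63 and 0.36, edgeR adjusted p = 7.13e-06 and 4.94e-07) rest on these few MDA-MB468 counts and give their order only. COL6A3 was at 0.165 to 0.400 CPM and 6.77 to 9.48 CPM. The FACIT chain COL12A1, which decorates type I fibrils, was at 3.76, 19.6, 3.15 and 6.37 CPM in MDA-MB468 and 105, 111, 608 and 593 CPM in BT549. The multiplexin COL15A1 was at 0.679, 1.65, 1.36 and 2.00 CPM and at 41.9, 27.9, 799 and 558 CPM. Both were higher in BT549, by log2 differences of 5.50 (SE 0.99) and 7.04 (SE 0.99), with edgeR adjusted p = 0.002 and 5.97e-04.

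COL9A2, a FACIT chain of cartilage, was again higher in MDA-MB468, with 19.5, 14.2, 15.5 and 13.7 CPM against 0.336 to 0.830 CPM (log2 difference -4.58, SE 0.25, edgeR adjusted p = 5.73e-06). Its partners COL9A1 and COL9A3 stayed under 1 CPM in every library. COL16A1 was at 6.27 to 10.7 CPM in MDA-MB468 and 11.3 to 30.2 CPM in BT549, and COL17A1, a hemidesmosome chain of epithelia, at 0.0823 to 0.702 and 1.86 to 6.29 CPM, both higher in BT549. COL8A1 and COL21A1 were also called higher (edgeR adjusted p = 0.03 and 0.024), but their calls were lost without the MDA-MB468 CE control library (0.0634 and 0.0801) or the MDA-MB468 CE Acetalax library (0.063 and 0.0784), and that of COL21A1 without the BT549 CE Acetalax library (0.0554). Pairing the libraries by condition also ended the COL8A1 call (edgeR adjusted p = 0.0559).

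COL18A1, a multiplexin, was at 91.8, 80.4, 80.5 and 80.6 CPM in MDA-MB468 and 102, 102, 71.5 and 78.9 CPM in BT549 and its log2 difference of 0.24 (SE 0.12) was not called (edgeR adjusted p = 0.108). Its exons overlap those of SLC19A1 on the opposite strand by 1563 bp. COL7A1, COL13A1 and COL23A1 were not called either (edgeR adjusted p = 0.957, 0.175 and 0.998). The levels of COL7A1 and COL23A1 differed between the lines in opposite directions in parental and CE cells. COL7A1 was 3.86-fold higher in BT549 among parental control cells and 6.69-fold lower among CE control cells. COL23A1 was 4.42-fold lower in BT549 among parental control cells and 4.24-fold higher among CE control cells. COL13A1 was 4.71-fold higher in BT549 among parental control cells and 1.06-fold lower among CE control cells, with an interval that includes no difference in the latter. With Acetalax COL13A1 was at 15.1 and 16.6 CPM in MDA-MB468 parental and CE cells and at 26.7 and 10.1 CPM in BT549.

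Levels of partner chains were compared per length, as FPKM over merged exons. In BT549 parental control the COL1A2 to COL1A1 ratio of FPKM was 0.919, and it was 2.91 in CE control and 2.95 in CE Acetalax. In MDA-MB468 parental control it was 0.0426. The COL3A1 to COL1A1 ratio of FPKM in BT549 was 0.177 in parental control and 1.43 in CE control. COL4A2 exceeded COL4A1 in FPKM in all 8 libraries, 1.45-fold to 3.11-fold. COL6A2 to COL6A1 was 0.521 in BT549 parental control and 0.903 in CE control, while COL6A3, the third chain of the type VI trimer, was at 0.0468 and 0.00979 of COL6A1 FPKM. Per length, therefore, the chains of one trimer were far from equal in type VI, and nearer to equal in type I of parental BT549 cells. Dividing by the length of the longest transcript instead put the COL1A2 to COL1A1 ratio above 1 there, at 1.09.

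The second comparison was between CE and parental cells without drug. With the 2 lines as the replicates, edgeR's quasi-likelihood test called 0 of 18377 genes (610 had an unadjusted p under 0.05, 6 of them collagen chains), and the smallest adjusted p was 0.947. DESeq2 called 46 genes, 2 of them collagen chains (COL5A2 and COL6A2, both higher in CE cells). COL6A2 had 1 count in each MDA-MB468 control library, so its call rests on BT549. The ratios of the 2 pairs of control libraries are therefore given first as values, with counting intervals only. In MDA-MB468, 19 chains had 1 CPM in 1 of the 2 libraries, of which 5 were at least 2-fold higher and 4 at least 2-fold lower in CE cells (2.98% and 2.36% of all genes at that level). In BT549, 11 of 25 were at least 2-fold higher and 5 at least 2-fold lower (8.47% and 6.41%). Between the Acetalax libraries the numbers were 3 and 6 of 20 in MDA-MB468 (3.68% and 3.49%) and 10 and 6 of 26 in BT549 (6.26% and 10.1%).

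A test of the change within each line, chosen after the data were seen, took the CE and parental libraries with and without Acetalax as 2 pairs. In this fit of all 8 libraries, edgeR's quasi-likelihood test called 21 of 33 chains in BT549, 15 higher and 6 lower in CE cells, where 22.4% of all genes were called (12.3% higher and 10.1% lower). In MDA-MB468 it called 10 of 33, 4 higher and 6 lower, against 4.42% of all genes (1.88% higher and 2.53% lower). The 2 pairs of a line share its parental and its CE population, so these p-values do not cover differences between separately raised CE populations.

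**Figure D3:**
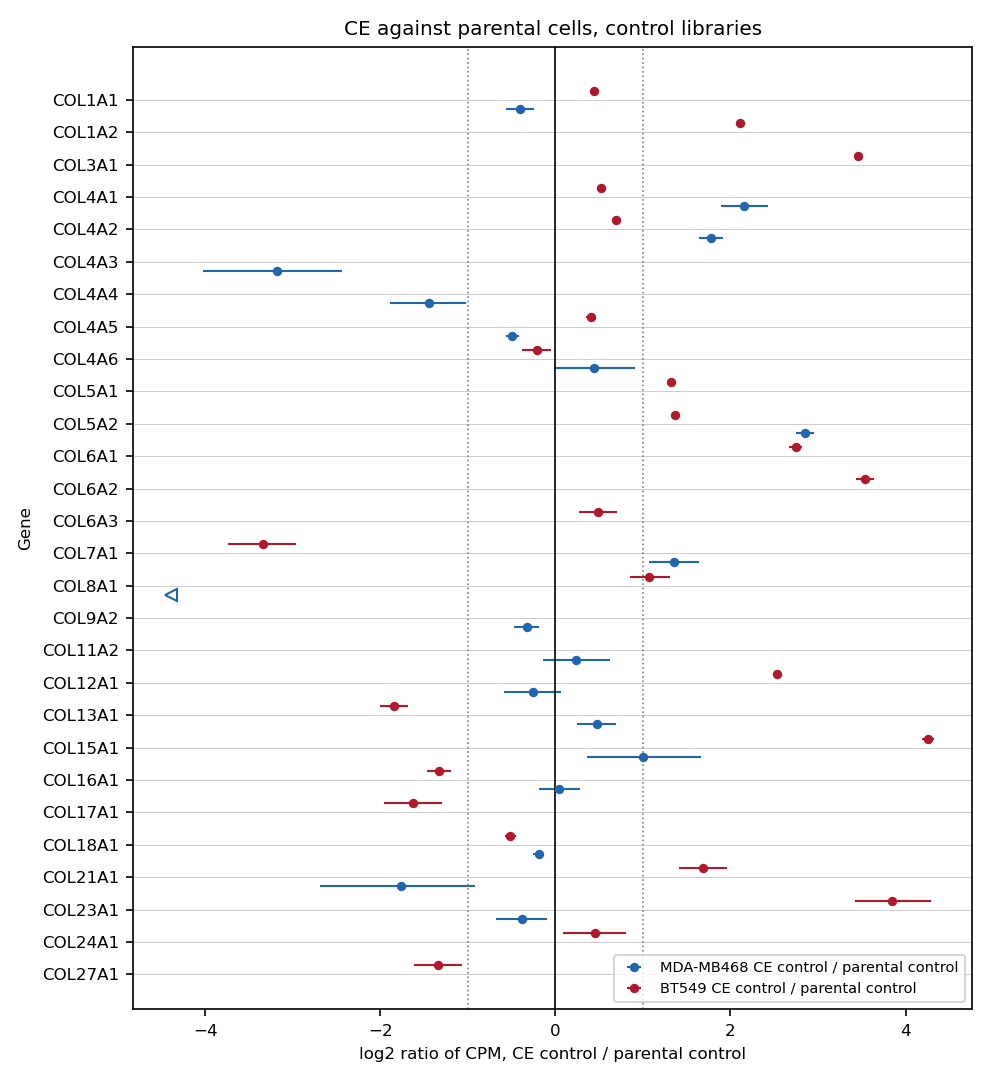
log2 ratio of CPM between CE control and parental control cells for the named collagen chains with at least 1 CPM in 1 of the 2 libraries, in MDA-MB468 (blue) and BT549 (red); bars are exact binomial 95% intervals of the counts, dotted lines mark 2-fold, and the open arrow is a bound for COL8A1, which had 0 counts in MDA-MB468 CE control. COL5A2, COL4A1 and COL4A2 lie right of 0 in both lines, and COL7A1, COL8A1 and COL21A1 lie on opposite sides.

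Within both lines 7 chains were called (33.3% of the 21 in BT549 and 70.0% of the 10 in MDA-MB468), 3 in the same direction and 4 in opposite directions. Of all genes tested, 1.82% were called in both lines, 1.01% in the same direction and 0.807% in opposite directions. The 3 that rose in CE cells of both lines were COL5A2, COL4A1 and COL4A2. COL5A2 went from 19.0 to 137 CPM between MDA-MB468 control libraries (7.21-fold) and from 391 to 1005 CPM in BT549 (2.57-fold). COL4A1 went from 2.92 to 13.0 CPM and from 184 to 265 CPM, and COL4A2 from 11.9 to 40.8 CPM and from 371 to 598 CPM. Within the lines the log2 changes were 2.91 and 1.52 for COL5A2 (SE 0.10 and 0.10, edgeR adjusted p = 3.07e-05 and 4.84e-05 for MDA-MB468 and BT549). For COL4A1 they were 1.95 and 0.54 (SE 0.13 and 0.12, edgeR adjusted p = 4.42e-04 and 0.0141), and for COL4A2 1.97 and 0.75 (SE 0.13 and 0.13, edgeR adjusted p = 4.42e-04 and 0.00464). In MDA-MB468 these neighbours, whose promoter windows overlap, had nearly the same log2 change.

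The 4 chains that moved in opposite directions were COL7A1, COL8A1, COL21A1 and COL4A5. COL7A1, whose protein anchors basement membranes to the stroma below, was at 3.04 and 7.77 CPM in MDA-MB468 parental and CE control, and at 11.8 and 1.16 CPM in BT549. Its log2 change was 1.06 in MDA-MB468 (SE 0.20, edgeR adjusted p = 0.0277) and -3.29 in BT549 (SE 0.22, edgeR adjusted p = 5.48e-05). COL8A1, a short-chain network chain, was at 1.42 and 1.26 CPM in the MDA-MB468 parental libraries and had 0 counts in both CE libraries, at least 20.9-fold lower in control cells. In BT549 it rose from 5.18 to 10.9 CPM (2.11-fold). COL21A1 was at 1.15 and 0.340 CPM in MDA-MB468 parental and CE control and at 3.22 and 10.3 CPM in BT549. COL4A5 went from 82.3 to 58.6 CPM and from 132 to 175 CPM.

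In BT549 the largest rise was that of COL15A1 on chr9:101705461-101833069 of hg19, from 41.9 to 799 CPM between controls (19.1-fold) and from 27.9 to 558 CPM between Acetalax libraries (20.01-fold). Its log2 change was 4.38 (SE 0.15, edgeR adjusted p = 2.38e-06). COL23A1, a membrane-spanning chain, went from 1.16 to 16.6 CPM (14.3-fold), COL6A2 from 18.7 to 217 CPM (11.6-fold), COL3A1 from 126 to 1388 CPM (11.01-fold) and COL6A1 from 37.2 to 249 CPM (6.70-fold). COL12A1 was 5.78-fold and COL1A2 4.31-fold higher in CE control. All of these were called within BT549, as were COL5A1, COL5A2, COL21A1, COL8A1, the type IV chains COL4A1, COL4A2 and COL4A5, and COL9A3, which stayed under 1 CPM. COL9A3 shares 155 bp of exon with TCFL5 on the opposite strand (10317 counts over the 8 libraries, against 164 for COL9A3). The strand setting of the counts is not given, so the level of COL9A3 is uncertain. COL1A1 was 1.36-fold higher, and its log2 change of 0.30 (SE 0.11) was not called (edgeR adjusted p = 0.103), so the partner chains of type I did not move by like amounts.

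Beside COL7A1, the chains that fell in BT549 CE cells were COL13A1 (28.9 to 8.04 CPM), COL16A1 (30.2 to 12.0 CPM), COL17A1 (6.29 to 2.05 CPM), COL27A1 (7.83 to 3.10 CPM) and COL14A1, which was under 1 CPM throughout. COL13A1 and COL17A1 are membrane-spanning, as is COL23A1, which rose. In MDA-MB468 CE cells COL4A3 fell from 3.29 to 0.362 CPM and COL4A4 from 3.76 to 1.38 CPM, by log2 changes of -3.09 (SE 0.32, edgeR adjusted p = 0.00209) and -1.94 (SE 0.30, edgeR adjusted p = 0.0117). COL1A1 fell there from 16.5 to 12.4 CPM between controls, a log2 change of -0.56 (SE 0.12, edgeR adjusted p = 0.0411).

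Neighbouring chain genes behaved in different ways. On chromosome 2, COL3A1 (chr2:189839046-189877472) and COL5A2 (chr2:189896622-190044605) lie tail to tail, 19149 bp apart. COL5A2 was at 137 CPM in MDA-MB468 CE control, where COL3A1 had 2 counts, while in BT549 CE cells both rose. COL6A1 and COL6A2 on chromosome 21, 93046 bp apart on the same strand, both rose in BT549 CE cells. COL4A3 and COL4A4 both fell in MDA-MB468 CE cells. COL4A5 was called in both lines and its head-to-head neighbour COL4A6 in neither, with log2 changes of 0.33 (SE 0.23) in MDA-MB468 and -0.38 (SE 0.20) in BT549.

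The third comparison tested whether the CE change itself differed between the lines. As each line had a single CE population, a difference between lines cannot be told apart from one between these CE populations. edgeR's quasi-likelihood test called 14 of 33 chains, 7 with a more positive change in BT549 and 7 with a more positive change in MDA-MB468, where 12.2% of all genes tested were called (7.3% and 4.91%). More positive in BT549 were COL1A1, COL4A5, COL8A1, COL12A1, COL15A1, COL21A1 and COL23A1. The log2 differences between the changes were 3.84 for COL15A1 (SE 0.24, edgeR adjusted p = 8.47e-05), 4.11 for COL23A1 (SE 0.29, edgeR adjusted p = 1.5e-04) and 3.62 for COL12A1 (SE 0.36, edgeR adjusted p = 7.9e-04). More positive in MDA-MB468 were COL4A1, COL4A2, COL5A2, COL7A1, COL13A1, COL16A1 and COL17A1. COL7A1 had the largest of these, at -4.35 (SE 0.30, edgeR adjusted p = 1.25e-04), and COL5A2 was at -1.39 (SE 0.14, edgeR adjusted p = 7.48e-04). COL1A2, COL3A1, COL6A1 and COL6A2 were not called (edgeR adjusted p = 0.176, 0.0937, 0.0641 and 0.421), with at most 41 counts in any MDA-MB468 library. In this comparison 3 epithelial markers were more positive in BT549 and 1 less, and 2 and 0 mesenchymal markers (7.3% and 4.91% of all genes). In the test within BT549, 4 of the 6 epithelial markers rose and 1 fell, with KRT8 at 1.25 and 34.4 CPM in parental and CE control. Of the 6 mesenchymal markers 3 rose and 2 fell there (12.3% and 10.1% of all genes), with VIM lower in CE control, at 1327 and 864 CPM. Within MDA-MB468, 2 epithelial markers rose and 2 mesenchymal markers fell (1.88% and 2.53% of all genes). The part of these markers in the collagen changes was not tested.

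The fourth comparison was between Acetalax and control in the 4 backgrounds. edgeR's quasi-likelihood test called 5.0% of 19693 genes (2.72% higher and 2.27% lower) and 1 of 33 collagen chains, COL7A1. In each pair COL7A1 was higher with Acetalax, at 3.04 and 5.35 CPM in MDA-MB468 parental cells, 7.77 and 9.71 CPM in MDA-MB468 CE cells, 11.8 and 21.4 CPM in BT549 parental cells and 1.16 and 1.98 CPM in BT549 CE cells. Its log2 change was 0.78 (SE 0.17, edgeR adjusted p = 0.0453, higher in 4 of 4 pairs). The call did not hold without any 1 of the 4 pairs, with adjusted p-values of 0.0846 without BT549 CE, 0.128 without BT549 parental, 0.0502 without MDA-MB468 CE and 0.19 without MDA-MB468 parental. Scaling by total counts alone also lost it (0.0539).

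COL5A2 was next, at 19.0 and 20.4, 137 and 169, 391 and 548, and 1005 and 1545 CPM without and with Acetalax in MDA-MB468 parental, MDA-MB468 CE, BT549 parental and BT549 CE cells. It was higher in 4 of 4 pairs by a log2 change of 0.47 (SE 0.11), which did not pass in edgeR (adjusted p = 0.0536) and did in DESeq2 (adjusted p = 0.0163). Its log2 ratio in MDA-MB468 parental cells was 0.10, with a counting interval that includes no difference. In both BT549 backgrounds COL5A1 had log2 ratios of -0.11 and -0.48 with Acetalax, so the COL5A2 to COL5A1 ratio of FPKM was 2.08 and 3.15 in parental control and Acetalax and 2.13 and 4.55 in CE control and Acetalax. Among BT549 CE chains, 21 of 25 had a log2 ratio below 0, with a median of -0.24. Of all genes there, 8513 of 13107 were below 0 and the median was -0.21, so the median of the chains was close to the background. At least 2-fold lower in that pair were 14.0% of all genes. Only COL28A1 was past 2-fold in that pair, lower at 1.42 and 0.554 CPM, and none of the 25 was higher (4.43%).

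**Figure D4:**
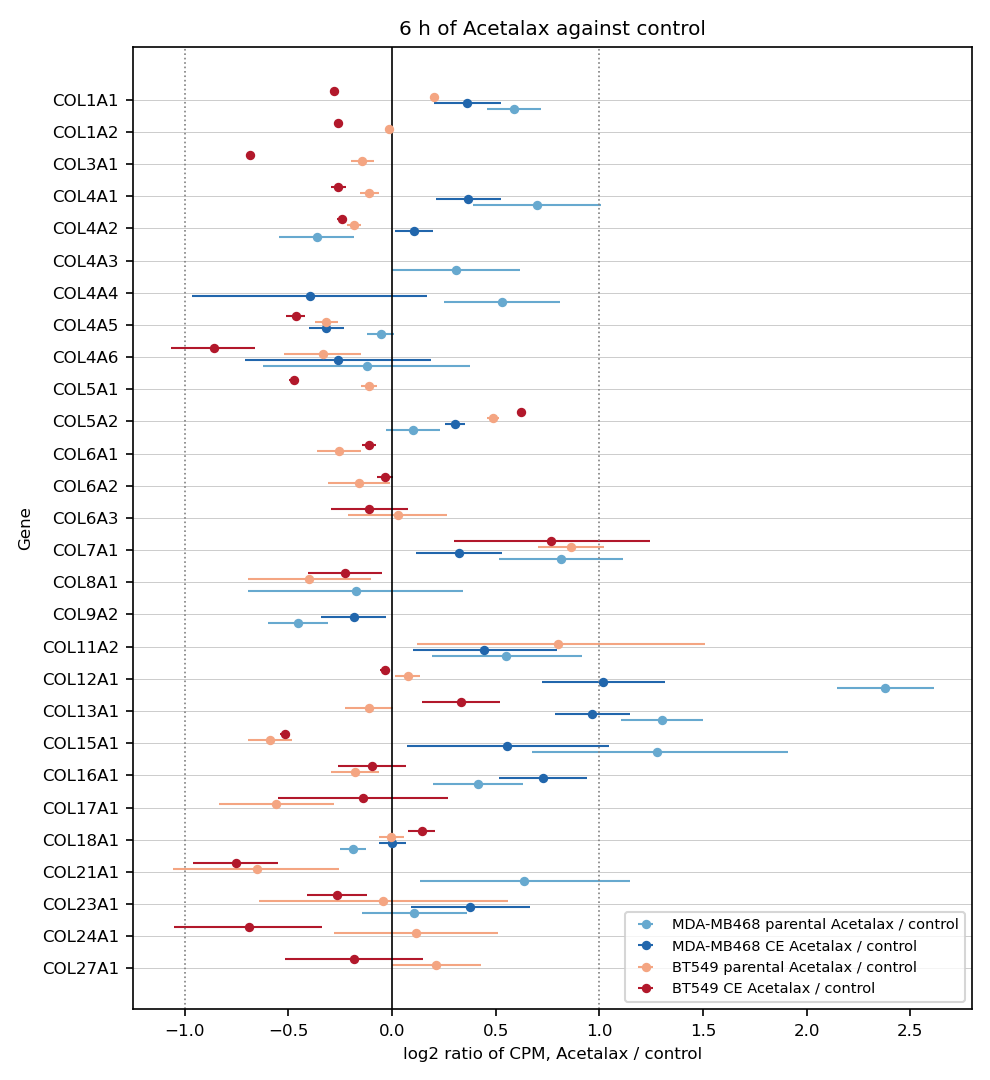
log2 ratio of CPM between Acetalax and control for the named collagen chains with at least 1 CPM in 1 of the 2 libraries, in MDA-MB468 parental (light blue), MDA-MB468 CE (dark blue), BT549 parental (orange) and BT549 CE cells (red); bars are exact binomial 95% intervals of the counts and dotted lines mark 2-fold. COL7A1 and COL5A2 lie right of 0 in all 4 pairs, and COL12A1 reaches a log2 ratio of 2.38 in MDA-MB468 parental cells.

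MDA-MB468 parental cells had the largest increases with Acetalax. COL12A1 was at 3.76 CPM in control and 19.6 CPM with Acetalax (5.20-fold), COL13A1 at 6.13 and 15.1 CPM (2.47-fold) and COL15A1 at 0.679 and 1.65 CPM (2.43-fold). With COL28A1 (0.679 and 1.59 CPM) 4 of 20 chains were at least 2-fold higher there (5.03% of all genes), and none at least 2-fold lower (5.2%). In MDA-MB468 CE cells COL12A1 was at 3.15 and 6.37 CPM (2.02-fold), the only 1 of 16 chains past 2-fold (2.43% of all genes higher and 3.62% lower). No chain of 26 was past 2-fold in BT549 parental cells (2.38% higher and 2.65% lower), where COL12A1 was at 105 and 111 CPM. The difference in response between the lines was called for COL15A1 only, at a log2 value of -1.37 (SE 0.23, edgeR adjusted p = 0.0421), where 1.78% of all genes were called (0.533% higher and 1.25% lower). The call was lost when a gene's mean had to reach 1 CPM (edgeR adjusted p = 0.0695). COL15A1 was higher with Acetalax in both MDA-MB468 pairs and lower in both BT549 pairs (41.9 and 27.9, and 799 and 558 CPM). For COL12A1 the difference was -1.66 (SE 0.36), which did not pass in edgeR (adjusted p = 0.0689) and did in DESeq2 (adjusted p = 0.00144).

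The enzymes that fold and modify collagen chains were examined as a list of 20 genes, all of them tested, of which the called members with the largest differences are named. Between the lines 16 were higher and 1 lower in BT549, where 30.3% of all genes tested were higher and 31.9% lower, with a median log2 difference of 2.63 against -0.01 over all genes. FKBP10, a prolyl isomerase of the endoplasmic reticulum, was at 0.0617 to 0.159 CPM in MDA-MB468 and 183 to 409 CPM in BT549. In the test of the CE change between the lines, 13 were called with a more positive change in BT549 and 0 with a more positive change in MDA-MB468 (7.3% and 4.91% of all genes), with a median of 0.93 against -0.02. Within BT549, 16 rose and 2 fell (COLGALT2 and TMEM38B) in CE cells (12.3% and 10.1% of all genes), and within MDA-MB468 0 rose and 1 fell (1.88% and 2.53%). SERPINH1, the collagen chaperone HSP47, was at 341 and 1576 CPM in BT549 parental and CE control (4.62-fold) and at 137 and 67.003 CPM in MDA-MB468, where it was the gene that fell (log2 change -0.86, SE 0.11, edgeR adjusted p = 0.00615). P4HA1, a catalytic chain of prolyl hydroxylase, was at 62.3 and 294 CPM in BT549 (4.72-fold) and at 8.80 and 10.3 CPM in MDA-MB468, and PLOD1, a lysyl hydroxylase, at 280 and 760 CPM and at 90.8 and 70.8 CPM. With Acetalax 1 of the 20 was called over the 4 backgrounds, PLOD2, another lysyl hydroxylase (log2 change 0.47, SE 0.10, edgeR adjusted p = 0.0431). That test called 5.0% of all genes, so the list was at the background.

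**Figure D5:**
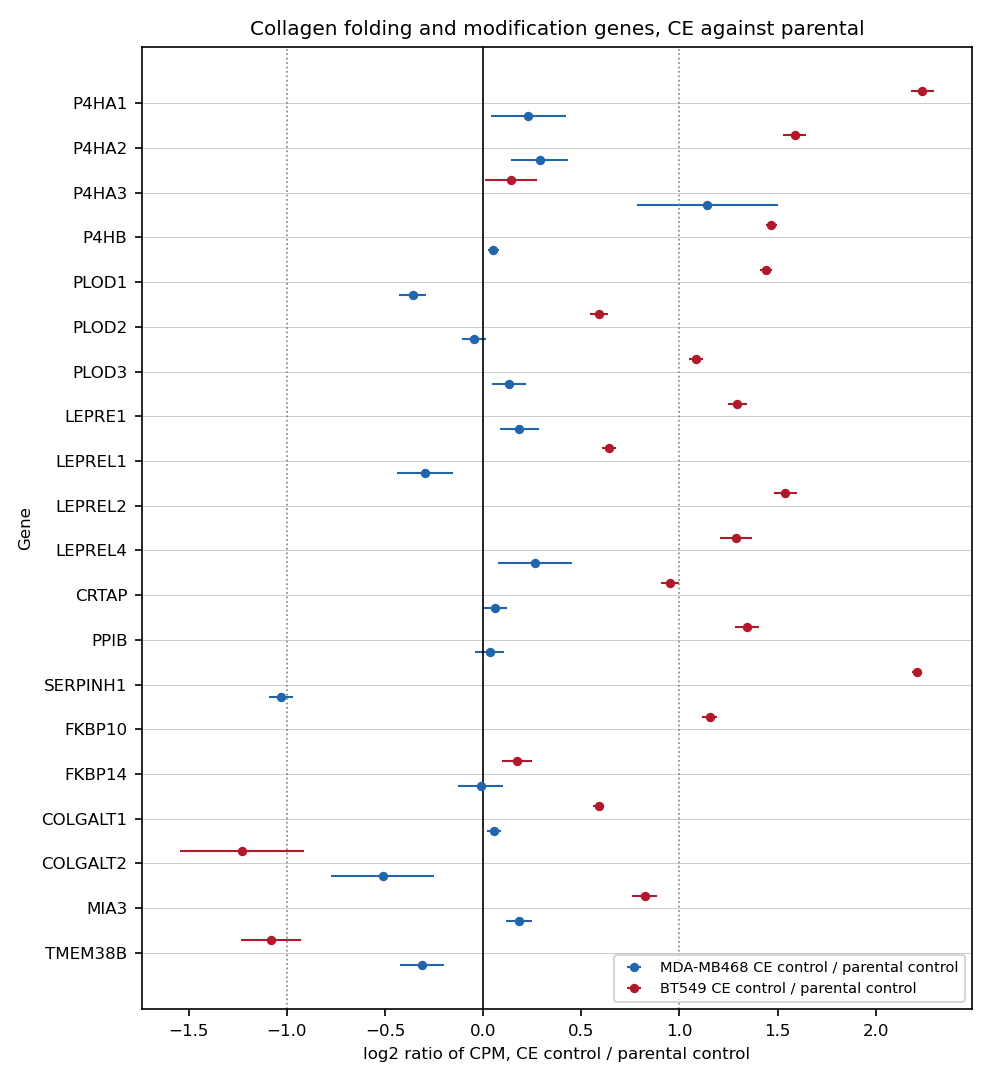
log2 ratio of CPM between CE control and parental control for the 20 collagen folding and modification genes, where at least 1 of the 2 libraries had 1 CPM, in MDA-MB468 (blue, 18 genes) and BT549 (red, 20 genes); bars are exact binomial 95% intervals of the counts and dotted lines mark 2-fold. In BT549 18 of 20 genes lie right of 0 with a median of 1.12, and in MDA-MB468 11 of 18 do, with a median of 0.05.

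Of 13 genes that trim and cross-link secreted collagen, 11 were tested, of which 9 were higher and 1 lower in BT549 (30.3% and 31.9% of all genes), with a median log2 difference of 3.47. The CE change was more positive in BT549 for 4 of them and less for 1 (7.3% and 4.91% of all genes), with a median of -0.05 against -0.02. ADAMTS2, which removes the amino-terminal propeptide of fibrillar chains, was at 0.0710 and 15.8 CPM in BT549 parental and CE control and at 0.165 and 0.0227 CPM in MDA-MB468. LOX, a lysyl oxidase, was at 299 and 772 CPM in BT549 and at 3.02 and 1.49 CPM in MDA-MB468. Its relative LOXL1 went the other way, at 23.0 and 3.08 CPM in BT549 and 0.494 and 1.09 CPM in MDA-MB468 (log2 difference -4.78, SE 0.46, edgeR adjusted p = 6.54e-04).

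Collagen receptors differed in kind between the lines. Of 10 tested (of 11), 7 were higher and 3 lower in BT549 (30.3% and 31.9% of all genes), with a median log2 difference of 2.11. The integrin chain ITGA2 was at 14.0 to 126 CPM in MDA-MB468 and at most 0.230 CPM in BT549, and DDR2, a receptor tyrosine kinase for fibrillar collagen, at 0.463 to 1.40 CPM and 219 to 295 CPM. The CE change was more positive in BT549 for 2 receptors and less for 1 (7.3% and 4.91% of all genes), with a median of 0.38. The latter was the integrin chain ITGA10 (log2 difference -1.88, SE 0.29, edgeR adjusted p = 0.00602). It was at 56.7 and 17.4 CPM in BT549 parental and CE control and at 0.514 and 0.657 CPM in MDA-MB468. MRC2, an endocytic receptor for collagen, was at 33.1 and 124 CPM in BT549 parental and CE control and at 4.52 and 4.01 CPM in MDA-MB468 (log2 difference 1.84, SE 0.23, edgeR adjusted p = 0.00224). DDR1, the epithelial relative of DDR2, was at 514 and 422 CPM in MDA-MB468 parental and CE control and at 21.2 and 28.7 CPM in BT549.

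Among 12 tested partners of collagen fibrils (of 13), 10 were higher in BT549 and 0 lower (30.3% and 31.9% of all genes), with a median log2 difference of 7.15. POSTN (periostin) and FBN2 (fibrillin-2) had 0 counts in every MDA-MB468 library and were at 88.1 to 161 CPM and 10.8 to 49.2 CPM in BT549. The CE change was more positive in BT549 for 3 partners and less for 1 (7.3% and 4.91% of all genes), with a median of 2.27. That median includes genes with few or 0 counts in MDA-MB468, FBN2 among them. Within BT549 6 partners rose and 3 fell (12.3% and 10.1% of all genes), with a median of 0.25. Within MDA-MB468 0 rose and 4 fell (1.88% and 2.53%), with a median of -0.39. FN1 (fibronectin) fell in both, at 1629 and 593 CPM in BT549 parental and CE control and 34.3 and 13.4 CPM in MDA-MB468. SPARC, which binds fibrillar collagen, was at 439 and 3447 CPM in BT549 parental and CE control (7.86-fold) and at 0.905 and 0.204 CPM in MDA-MB468. With Acetalax 1 of the 12 fibril partners was called over the 4 backgrounds, where 5.0% of all genes were called. It was THBS1 (log2 change 1.48, SE 0.22, edgeR adjusted p = 0.0318).

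Among 14 tested partners in basement membranes (of 15), 8 were higher and 5 lower in BT549 (30.3% and 31.9% of all genes), with a median log2 difference of 0.70. The CE change was more positive in BT549 for 4 of these and less for 1 (7.3% and 4.91% of all genes), with a median of 0.36. NID1 (nidogen), which links laminin to type IV collagen, was at 0 to 0.185 CPM in MDA-MB468 and 8.35 to 15.8 CPM in BT549. LAMA4, a laminin chain, was at 2.91 and 22.2 CPM in BT549 and at 85.8 and 37.1 CPM in MDA-MB468 parental and CE control. LAMB3, a laminin chain of epithelial basement membranes, was at 3.12 and 1.62 CPM in BT549 and at 8.23 and 22.9 CPM in MDA-MB468. Over the 4 backgrounds no basement membrane partner, receptor or cross-linking gene was called with Acetalax in edgeR (5.0% of all genes). The Acetalax response was less positive in BT549 for 1 basement membrane partner and 1 processing gene (1.25% of all genes). The latter was PCOLCE2 (log2 difference -2.24, SE 0.32, edgeR adjusted p = 0.031).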

How the data were processed

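RNA-seq (polyA-selected, strand-marking kit, paired reads) was analysed from 8 libraries with 1 library per condition, so that p-values measure only the spread between these libraries. Per the labels and the study's methods, the authors aligned reads to hg19 with STAR (2.7.11b in the submitters' processing notes) and deposited raw counts per gene, with no normalization. The annotation and strand column are not given in the sources used here. The table held 58154 rows for 55679 identifiers, and each identifier was used once. Library totals were 42261122 to 54241728 counts.

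CPM were computed over all counts on genes and FPKM over merged exon lengths of an hg19 GENCODE annotation. Tests used edgeR 4.0.16 (quasi-likelihood, TMM, filterByExpr, Benjamini-Hochberg over all genes), with DESeq2 1.42.0 as an alternative. Both were tested on simulated data. CPM ratios carry exact binomial 95% intervals, which cover counting error only. Given with values in every library were members with a mean of at least 5 CPM in a line or called in any test, and their partner chains. From each gene list, the 3 called genes with the largest change per test were eligible to be named, and the few others were named after their values were seen. The members and lists were chosen with earlier results of these data known.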

Additional observations from a re-analysis of the deposited data

Results flagged for a closer look

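Each value here is a difference between the lines, BT549 minus MDA-MB468, of a log2 change, and each passed edgeR's quasi-likelihood test of that difference. For the CE change, a difference between lines cannot be told apart from one between their single CE populations. For the change between CE and parental cells the value was 10.18 for COL8A1, which had 0 counts in both MDA-MB468 CE libraries so that its size is set by the fit. It was 4.11 for COL23A1, 3.84 for COL15A1, 3.66 for COL21A1, 3.62 for COL12A1, 1.08 for COL4A5 and 0.86 for COL1A1. On the negative side it was -4.35 for COL7A1, -3.11 for COL17A1, -1.79 for COL13A1, -1.41 for COL4A1, -1.39 for COL5A2, -1.36 for COL16A1 and -1.21 for COL4A2. For the Acetalax response the value was -1.37 for COL15A1, a call that was lost when a gene's mean had to reach 1 CPM (edgeR adjusted p = 0.0695).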

How the results depend on the processing

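With 1 library per condition the sum of the 43 chains and every pair ratio rest on single libraries. Pairing the libraries by condition ended the line call of COL8A1 (edgeR adjusted p = 0.0559).

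Of the values for single genes under the alternatives, 1156 kept their side of the threshold, 50 newly passed it and 19 no longer passed it. A further 6 passed it with the opposite sign. Values that passed in neither setting count as kept even where their sign changed. An example is COL12A1 for CE against parental, at 1.19 in the main fit and -1.05 within MDA-MB468. Of the main values and counts, 74 held, 68 moved and 1 reversed. BT549 against MDA-MB468 called 6731 genes in the control libraries alone, with COL4A3, COL8A1, COL17A1 and COL21A1 lost. CE against parental called 2 chains in DESeq2 (46 genes), with all genes with a count (45) and in all 8 libraries (76). Chosen after the data were seen, the same contrast called 21 chains (4410 genes) in BT549 and 10 (870) in MDA-MB468. The 6 values that passed with the opposite sign were COL1A1 -0.56, COL7A1 1.06 and COL21A1 -1.93 in MDA-MB468 and COL4A5 0.42, COL8A1 1.25 and COL17A1 -1.32 in BT549.

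Acetalax against control called 4 chains (2684 genes) in DESeq2, 5 (3585) with all genes with a count, 0 (87) at a mean of at least 1 CPM, 0 chains with total counts, and 0 chains and 0 genes in parental or CE cells alone. Leaving out 1 pair gave 0 to 0 chains and 0 to 554 genes, the 0 without MDA-MB468 parental. The Acetalax difference between lines called 2 chains (926 genes) in DESeq2, 2 chains with total counts, 6 (1632) with all genes with a count and 0 (44) at a mean of at least 1 CPM. The CE difference called 22 chains with all genes with a count. The causes were not tested.

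On log2(FPKM + 1), chains past 2-fold numbered 1 and 10 for CE in MDA-MB468 and BT549, 0 for Acetalax in MDA-MB468 parental, MDA-MB468 CE and BT549 CE, and 15, 13, 16 and 13 between the lines in parental control, parental Acetalax, CE control and CE Acetalax. On log2(CPM + 0.5) they numbered 2, 0 and 0 for those 3 Acetalax pairs. At 5 CPM or more they numbered 4 for CE in MDA-MB468, and 2 and 0 for Acetalax in MDA-MB468 parental and BT549 CE. TMM scaling gave 2 for Acetalax in MDA-MB468 CE. TMM scaling put the log2 ratio of summed chains at 0.43 and 1.67 for CE in MDA-MB468 and BT549, at 0.17, 0.24, 0.13 and -0.056 for Acetalax (MDA-MB468 parental and CE, BT549 parental and CE), and at 3.86, 3.82, 5.10 and 4.80 between the lines. Longest transcripts gave FPKM ratios in BT549 parental control of 1.09 (COL1A2 to COL1A1, across 1), 2.04 (COL4A2 to COL4A1), 0.613 (COL6A2 to COL6A1), 0.0727 (COL6A3 to COL6A1) and 1.68 (COL5A2 to COL5A1).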
